A study of Danio rerio with 49 samples.

Results

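The mitochondrial genome genes are the 37 of 40085 measured genes that the deposited table places on chromosome MT (genome build danRer11). Of these, 14 are 200 bp or longer (12 protein genes and both ribosomal RNA genes), and they are described apart from the 23 shorter ones (22 transfer RNA genes and mt-atp8). Membership was set by chromosome and length. They were followed in 49 bulk RNA-seq libraries of zebrafish spinal cord, 5 segments rostral and 5 segments caudal to the site of a complete spinal cord transection. Each region was sampled in uninjured fish and after injury, at weeks 1, 2, 4 and 6 (written as wpi, for weeks after the injury), with 5 libraries per group and 4 at caudal 6 wpi, whose libraries carry the numbers 1, 2, 3 and 5.

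All groups were spinal cord of strain AB, from juvenile or adult fish of both sexes, and the labels set them apart by region, injury and time. The fish used are given as aged 6 to 8 weeks, without saying whether at injury or at sampling. Age at sampling may therefore differ between the weeks. The study's methods give 3 fish for each group and pooled samples. They do not say whether the libraries of a group hold separate fish, so the p-values here rest on the spread between libraries, which may be technical. The fits used here also draw the spread of each gene toward that of genes of similar level. In bulk tissue, fewer cells of a type and less RNA per cell cannot be told apart. The libraries held 4359571 to 26940599 fragments on genes (median 19801039), recovered as whole numbers from FPKM (fragments scaled by gene length and by library size), and every mitochondrial gene of 200 bp or more had at least 264 fragments in every library. Neuronal (elavl3, elavl4), myelin (mbpa) and radial glial (gfap) transcripts were present in every library, and the 4 homeobox genes listed as markers of spinal position were not matched by name and not used.

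Mitochondrial DNA is a small circle whose genes are read from both strands as long transcripts. Transfer RNAs punctuate these transcripts, and their excision releases the individual messenger and ribosomal RNAs. The proteins are core subunits of the respiratory chain and of the ATP synthase, the machinery that makes most ATP in neurons, while the remaining subunits, the mitochondrial ribosomal proteins and the transcription apparatus are encoded in the nucleus. The ribosomal RNAs, 12S (mt-rnr1) and 16S (mt-rnr2), form the core of the mitochondrial ribosome.

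By the file's coordinates on MT, mt-rnr1 lies at 1020 to 1971 and mt-rnr2 at 2043 to 3725, followed by mt-nd1 at 3803 to 4777. The cytochrome oxidase genes mt-co1, mt-co2 and mt-co3 lie at 6425 to 7975, 8130 to 8820 and 9735 to 10520, and mt-cyb at 15308 to 16448. Of the 37 genes, 28 lie on the plus strand. The 9 on the minus strand are 8 transfer RNA genes and mt-nd6 at 14714 to 15232, which is the only protein gene there. Vertebrate mitochondrial genes have no introns. Of neighbouring genes, mt-atp8 and mt-atp6 shared 7 bases, mt-nd4l and mt-nd4 shared 7, and mt-nd5 and mt-nd6, on opposite strands, shared 4. The library kit and labels do not state that strand was kept, so transcripts of opposite strands at 1 place cannot be told apart, and the value of mt-nd6 can include RNA of the other strand. Nuclear copies of mitochondrial DNA can share reads with any of these genes. A separate gene name reference paired symbols with the 13 protein genes, and the ribosomal and transfer RNA genes were named from RefSeq entries of identical coordinates (37 of 37 matched).

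Per length, the 16S rRNA gene mt-rnr2 was the most abundant member, with a mean of 88896 FPKM (range 23714 to 199174, n = 49), and it took 70.9% of all mitochondrial fragments. The 12S rRNA gene mt-rnr1, its partner in the ribosome, averaged only 1623 FPKM (225 to 5069). Whether messenger RNA was selected or ribosomal RNA removed before sequencing is not stated in the labels, and both steps act on these genes.

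The catalytic core of complex IV followed, with mt-co2 at a mean of 23072 FPKM (4460.4 to 51648), mt-co3 at 16155 (3380.1 to 36792) and mt-co1 at 8104 (2398 to 18551). The cytochrome b gene mt-cyb, the only mitochondrially encoded subunit of complex III, averaged 7418 FPKM (2193 to 15778), and mt-atp6, a subunit of the proton channel of the ATP synthase, 5836 (1322 to 13783). All 7 mitochondrially encoded subunits of complex I, the entry point for NADH, were lower. Among them mt-nd4 averaged 1548 FPKM (621 to 3011) and mt-nd2 1397 (564 to 2743). The others were mt-nd5 at 469 FPKM (265 to 834), mt-nd1 at 386 (109 to 814), mt-nd6 at 343 (165 to 595), mt-nd4l at 256 (98.7 to 457) and mt-nd3 at 229 (62.5 to 518).

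Steps in this order of FPKM levels held to different degrees across libraries. The order mt-rnr2 over mt-co2, mt-co2 over mt-co3, mt-atp6 over mt-rnr1 and mt-nd2 over mt-nd5 held in 49 of 49 libraries. By contrast, mt-rnr1 exceeded mt-nd4 in only 26 of 49 libraries, mt-nd4 exceeded mt-nd2 in 31, mt-nd1 exceeded mt-nd6 in 31 and mt-co1 exceeded mt-cyb in 36, so the order of these neighbours changed from library to library.

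**Figure D1:**
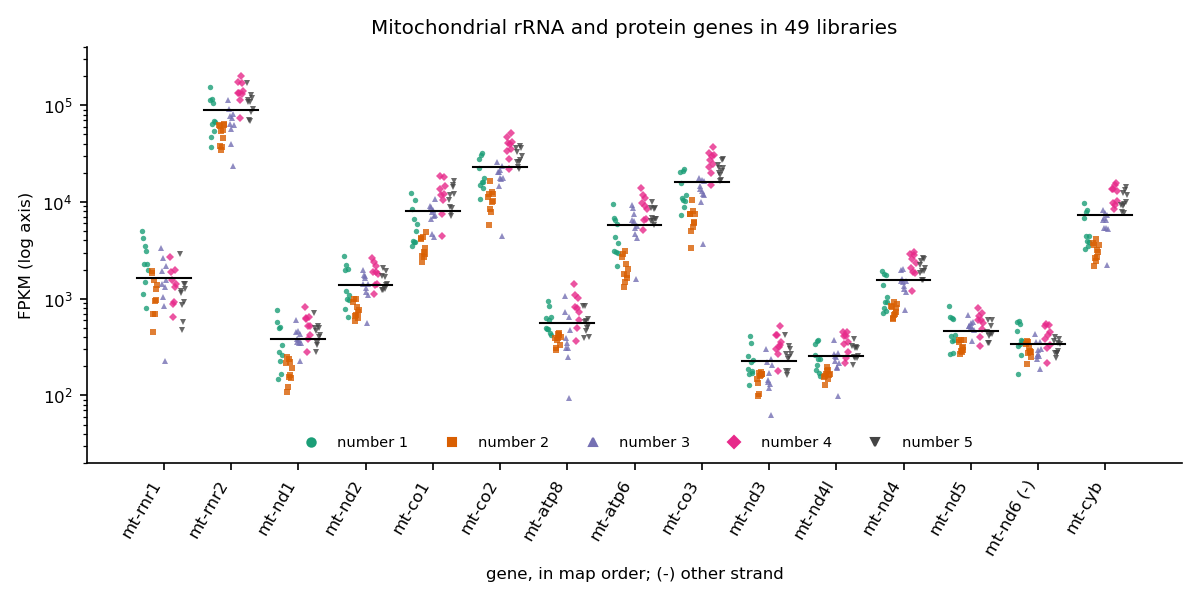
FPKM (log axis) of the 14 mitochondrial genes of 200 bp or more and of mt-atp8 in each of 49 libraries, in the order of the genome, with symbols for the replicate number and a bar for the mean. For most protein genes the libraries numbered 2 lie lowest and those numbered 4 and 5 highest, while for mt-rnr1 those numbered 1 lie highest.

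The short members were sparse apart from mt-atp8, the other mitochondrially encoded ATP synthase subunit (165 bp, mean 561 FPKM, 94.6 to 1408). The 22 transfer RNA genes, of 68 to 77 bp, together held 23799 fragments or 0.0129% of the mitochondrial total, and 10 of them had a fragment in every library. Their mean levels had a median of 5.39 FPKM, with trnN at 142 (12.5 to 341), trnG at 56.7 (9.6 to 112) and trnC at 54.6 FPKM (8.21 to 128) at the top. trnP had 2 fragments in all 49 libraries and was not tested. Genes of this size are shorter than typical sequenced fragments, so these values describe what the protocol retained and their number of fragments limits precision.

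The level of these genes followed the replicate number in the labels, which do not say what the number marks. Mitochondrial genes took 9.25% to 33.4% of all fragments on genes in a library. By number, the share was lowest in libraries numbered 2 (11.1% to 18.7%, median 14.2%, 10 libraries) and highest in those numbered 4 (16.0% to 31.1%, median 26.1%, 9 libraries). It was 12.2% to 33.4% (median 19.1%) in number 1, 9.25% to 22.8% (median 18.8%) in number 3 and 16.8% to 24.7% (median 20.2%) in number 5. Within groups the library numbered 2 had the lowest share in 7 of 10. The range of every injured group overlapped that of uninjured fish of its region. Within numbers, the mitochondrial share was below that of the uninjured library in 4 of 5, 4 of 5, 3 of 5 and 2 of 5 numbers at rostral 1, 2, 4 and 6 wpi and in 5 of 5, 4 of 5, 2 of 5 and 2 of 4 at the caudal times, sharing the uninjured libraries of a region. At caudal 1 wpi the difference in share was -11.7 to -1.36 percentage points (mean -5.37). Uninjured rostral libraries spanned 14.1% to 33.4% and rostral 1 wpi 11.7% to 26.3%, while uninjured caudal libraries spanned 14.1% to 27.1% and caudal 1 wpi 11.2% to 16.8%. The depth of the libraries also went with the number, at 4359571 to 19110043 fragments in number 1 and 19801039 to 26055184 in number 4, and its part in these levels was not tested.

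Composition within the mitochondrial genome followed the number as well. The FPKM ratio of mt-rnr2 to mt-rnr1 was 20.7 to 67.5 in libraries numbered 1 and 58.9 to 149 (median 91.3) in those numbered 5. In number 4 it was 65.3 to 214 (median 98.9), and in 8 of 9 groups both the library numbered 4 and that numbered 5 exceeded all of 1 to 3. The ratio of mt-co1 to mt-nd6, genes of opposite strands, was 8.82 to 17.3 (median 11.6) in number 2 and 26.1 to 48.6 (median 31.9) in number 5. Both ratios differed between libraries of 1 group. Against the uninjured library of the same number, mt-rnr2 over mt-rnr1 was lower in 0, 1, 0 and 1 of 5 rostral pairs. These are in the order of 1, 2, 4 and 6 wpi, and the caudal counts were 1, 0 and 1 of 5 and 2 of 4. The rRNA share of mitochondrial fragments was lower in 4, 4, 5 and 4 of 5 rostral pairs. In caudal pairs it was lower in 5, 4 and 4 of 5 and in 3 of 4. Pairs of a region share its uninjured libraries, and these differences were not tested.

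**Figure D2:**
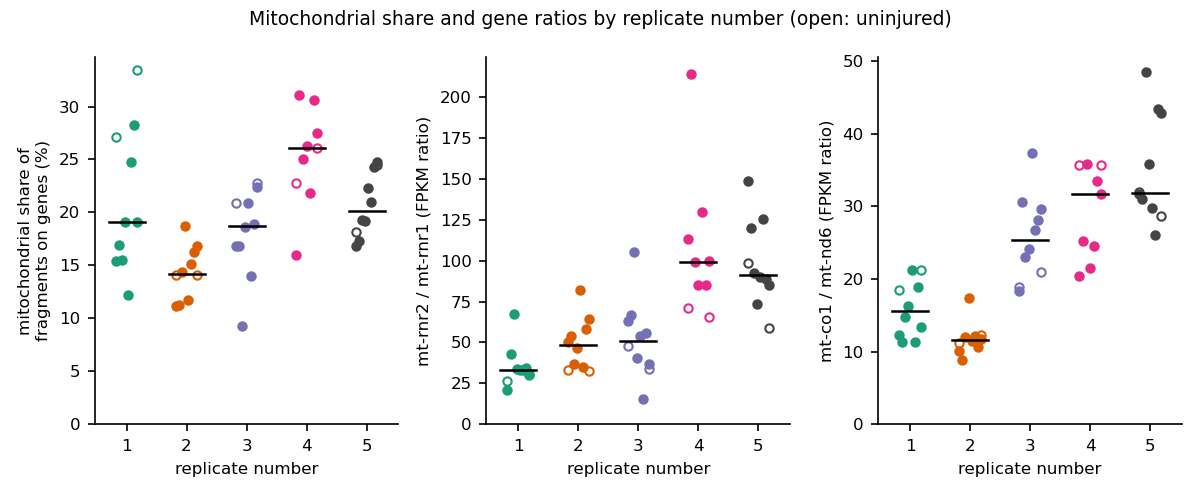
Mitochondrial share of fragments on genes (%), and the FPKM ratios of mt-rnr2 to mt-rnr1 and of mt-co1 to mt-nd6, for each of 49 libraries by replicate number, with open symbols for uninjured fish, filled symbols for injured fish and a bar for the median. The medians of mt-rnr2 over mt-rnr1 are 48.3 in number 2 and 98.9 in number 4.

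Libraries numbered 4 and 5 were compared with those numbered 1 to 3 within groups, in a limma fit with group and number as terms. This split was chosen with earlier results of these data known. The fit treats libraries as independent, although rostral and caudal libraries of the same time and number deviated together in all 24 such pairs. Its SEs and p-values can therefore be too small, and they measure spread within numbers, not between numbers. Of the 14 longer members, 12 were higher in numbers 4 and 5 and 0 lower, with a median difference of 0.84 on the log2(FPKM + 0.1) scale, against a median of -0.03 over all genes. Differences were common among all genes too: 52.2% of 28272 genes were called, and 25.1% of 28272 were called as higher. The largest differences were in mt-cyb, at 1.28 (SE 0.12, adjusted p = 2.85e-11), mt-co3 at 1.23 (SE 0.13, adjusted p = 5.51e-10) and mt-co2 at 1.14 (SE 0.14, adjusted p = 9.23e-09). In 8 of 9 groups, both libraries 4 and 5 had more mt-cyb than any of 1 to 3, and the same count held for mt-co2, mt-co3 and mt-rnr2. For the other longer protein genes it ranged from 2 of 9 groups (mt-nd5) to 7 of 9 (mt-nd4), and for mt-rnr1 it was 0. For the mitochondrial share of fragments it was 4 of 9.

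The other members higher in libraries 4 and 5 were mt-atp6 at 1.13, mt-co1 at 1.098, mt-nd4 at 1.001, mt-rnr2 at 0.93, mt-nd3 at 0.76, mt-nd1 at 0.73, mt-nd4l at 0.58, mt-nd2 at 0.56 and mt-nd5 at 0.25 on the same log2 scale (limma, adjusted p from 9.76e-11 to 0.0238). The exceptions were mt-rnr1, at -0.28 (SE 0.17, adjusted p = 0.157), and mt-nd6, at 0.17 (SE 0.10, adjusted p = 0.161). For mt-rnr1 the highest library of a group was number 1 in 8 of 10 groups, at 805 to 5069 FPKM (median 2274), against 476 to 2884 FPKM (median 1173) in number 5. Of the 22 short members tested, 8 were higher and 0 lower, among them mt-atp8 at 0.57 (SE 0.15, adjusted p = 0.00226) and trnG at 0.67. Without number 2, mt-nd2 (0.29, adjusted p = 0.0772) and mt-nd5 (0.05, adjusted p = 0.72) were no longer called and mt-rnr1 was lower (-0.52, adjusted p = 0.0195). With no filter on low values, the mt-rnr2 call was lost (0.93, SE 0.48, adjusted p = 0.114). Without number 4 the mt-nd5 call was also lost (0.11, adjusted p = 0.462), and without number 1 mt-nd6 was higher (0.29, adjusted p = 0.0103).

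The denominator of the deposited FPKM tracked a size factor and not the sum of fragments, and the direction of some members depends on it. Scaled by the sum of all fragments, the median of all genes moved to -0.51, and 7 of the 14 were called higher and 3 lower, these being mt-rnr1 (-0.85), mt-nd5 (-0.32) and mt-nd6 (-0.40). Of these 3, mt-nd5 and mt-nd6 lay above that median of all genes. Scaled by nuclear fragments, the median of all genes was -0.43, with 9 higher and the same 3 genes lower, mt-nd5 (-0.22) and mt-nd6 (-0.31) again above that median. Relative to the median of all genes, the median of the 14 was 0.87 above it as deposited, 0.78 above it by all fragments and 0.80 above it by nuclear fragments. Quantile normalization, which forces all libraries to 1 distribution and so fixes the top of the range where mt-rnr2 lies, left 0.16, with 5 higher and 3 lower. The share of all genes called is not given for these other scalings, so their counts are not set against it.

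**Figure D3:**
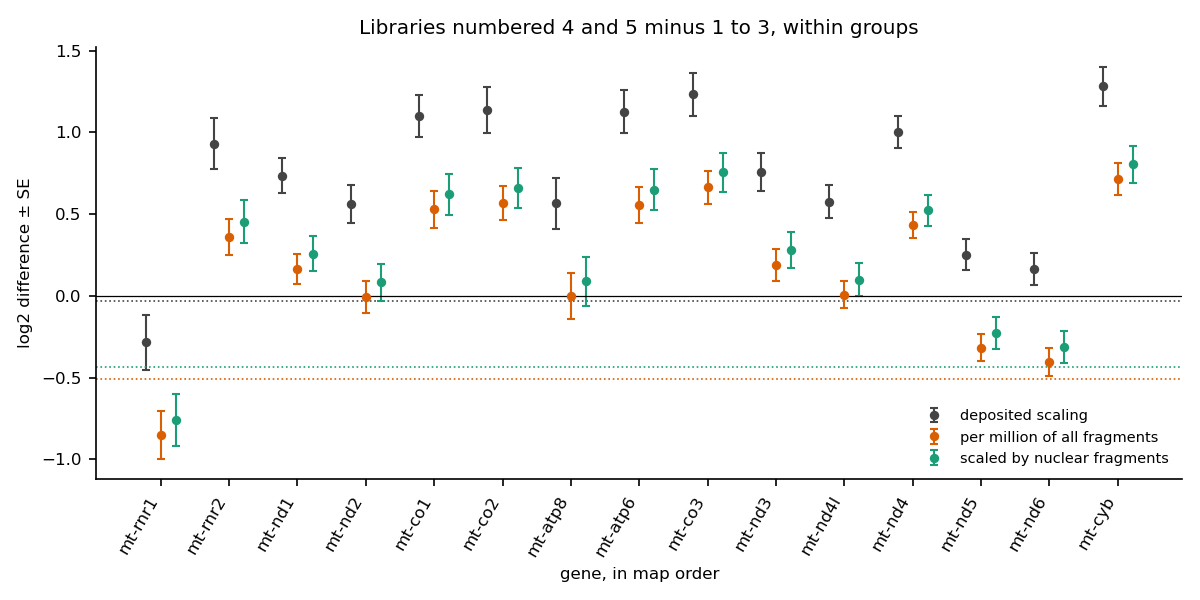
Log2 difference ± SE between libraries numbered 4 and 5 and those numbered 1 to 3, within groups, for the 14 longer genes and mt-atp8 in genome order, under 3 scalings, with a dotted line at the median of all genes for each. As deposited, mt-cyb stands at 1.28 and mt-rnr1 at -0.28, and mt-nd5 and mt-nd6 fall below 0 under the other scalings.

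Nuclear genes of the same machinery differed between the numbers in the same comparison. Among all 28272 genes tested in it, 52.2% were called either way and 25.1% were called as higher. Of 71 tested nuclear subunits of complexes I to V and cytochrome c (76 of 95 listed were matched by symbol), 57 were higher in numbers 4 and 5 and 1 lower, with a median of 0.51. By complex, 22 of 30 tested subunits of complex I, 2 of 3 of complex II, 9 of 9 of complex III with cytochrome c, 12 of 13 of complex IV and 12 of 16 of the ATP synthase were higher. Examples were the complex IV subunit gene cox4i2 at 0.74 (SE 0.06) and the ATP synthase stalk gene atp5po at 0.91 (SE 0.09). The single lower gene was the complex I subunit ndufa8, at -0.32. Of 71 mitochondrial ribosomal protein genes, 58 were higher and 1 lower. The mitochondrial transcription and replication list split, with 8 of 18 higher, such as the nuclease gene mgme1 (0.81), and 6 lower, among them ppargc1a (-0.45), known in mammals as a coactivator of mitochondrial biogenesis. Cell type markers differed as well. Of the 6 matched genes of myelinating glia, 3 were higher, among them mbpa (0.92) and mbpb (1.13). Of the 4 matched neuron genes, 2 were lower, the neurofilament gene nefma (-1.24) and elavl3 (-0.13). These counts lie near the share called among all genes. From the microglia list, apoeb (0.90) and cd74a (0.94) were higher and csf1ra (-0.27) was lower, of 3 tested. The part of these in the mitochondrial levels was not tested.

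The study sequenced this tissue to find which serotonin receptor subtypes mediate axon regrowth, and it tested each week against uninjured fish. Here too, each week was compared with uninjured fish of the same region (limma on log2(FPKM + 0.1), which understates changes of low genes, with Benjamini-Hochberg adjustment over all genes tested). Of the 14 longer members, 1 was called in these 8 comparisons, mt-rnr1, which was lower at rostral 1 wpi. With the deposited scaling, estimates leaned below 0 in all 8 comparisons. At rostral 1, 2, 4 and 6 wpi, 14, 14, 13 and 14 of the 14 estimates were below 0, with medians of -0.62, -0.34, -0.21 and -0.34, against medians of all genes between -0.03 and 0.00. At caudal 1, 2, 4 and 6 wpi they were 14, 13, 14 and 13 of 14, with medians of -0.46, -0.23, -0.54 and -0.25. Caudal 6 wpi lacks number 4, the number with the highest median mitochondrial share, while its uninjured reference has it. In a fit of all groups with the number as a term, which allows for this, mt-rnr1 was at -0.41 at caudal 6 wpi. That is the same as in the separate fit, while mt-nd1 was less negative, at -0.41. The part of the missing number in the other estimates at caudal 6 wpi was not tested. As shares of fragments within numbers, the protein genes were lower in 2, 3, 1 and 2 of 5 at the rostral times. At the caudal times they were lower in 4, 2 and 2 of 5 and in 1 of 4. Mean differences ran from -0.64 (caudal 1 wpi) to 0.84 percentage points (rostral 4 wpi), with 0.52 at caudal 6 wpi. The share on the rRNA genes was lower in 5, 5, 3 and 3 of 5 rostral numbers. In caudal segments it was lower in 5, 4 and 3 of 5 and in 3 of 4 (mean -1.71 at 6 wpi). The 4 weeks of a region share their uninjured libraries, and the members of a library share its scaling, so these are not independent counts.

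At rostral 1 wpi, where 1 of 14 was called, 9.82% of 28174 genes were called and 3.5% were called as lower. In the other 7 comparisons limma called 0 of the 14, and the shares of all genes called were 15.1%, 6.42% and 4.26% at rostral 2, 4 and 6 wpi and 13.2%, 6.36%, 1.38% and 0.461% at caudal 1, 2, 4 and 6 wpi. At an unadjusted p under 0.05, the members lower were 1 at rostral 1 wpi, 0, 1 and 1 at rostral 2, 4 and 6 wpi, and 3, 1, 2 and 0 at caudal 1, 2, 4 and 6 wpi, with 0 higher. The fit by voom on recovered fragments called mt-rnr1 lower at rostral 1 wpi and caudal 2 wpi, and 0 of the 14 in the other 6. A single call among 14 members is too few to set apart from these shares.

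Libraries with the same number deviated together from their group means in several comparisons, and the number was then fitted as a block. Where every same-numbered pair correlated above 0.1, the blocked fits called mt-rnr1 lower at rostral 4 wpi (-0.90, SE 0.19, adjusted p = 0.0301, with 3.15% of all genes lower) and at rostral 6 wpi (-0.94, SE 0.18, adjusted p = 0.0252, with 1.95% lower). A single fit of all 10 groups, blocked on the number and added after seeing the data, called more members lower than the separate fits. These were 5 at rostral 1 wpi (mt-rnr1, mt-rnr2, mt-nd1, mt-nd3 and mt-nd6), mt-nd1 alone at rostral 2 and 6 wpi, and 0 at rostral 4 wpi. In caudal segments they were mt-rnr1, mt-nd1 and mt-co1 at 1 wpi, mt-rnr1 and mt-nd1 at 2 wpi, mt-rnr1, mt-nd1 and mt-atp6 at 4 wpi, and 0 at 6 wpi. That fit called 13.8%, 15.3%, 8.05% and 7.05% of all genes lower at rostral 1, 2, 4 and 6 wpi, and 16%, 9.64%, 4.14% and 3.16% at caudal 1, 2, 4 and 6 wpi.

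**Figure D4:**
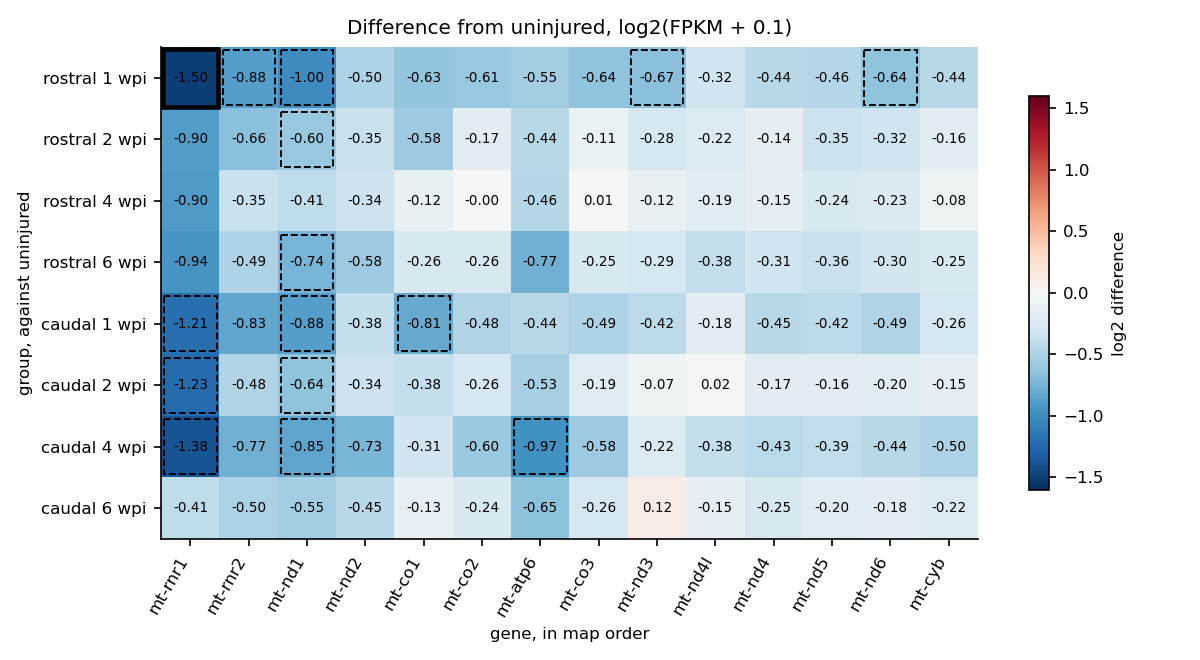
Difference from uninjured fish on the log2(FPKM + 0.1) scale for the 14 longer genes (columns, in genome order) in the 8 comparisons (rows), in blue where lower. The thick box marks the member called by limma in the separate fits (mt-rnr1 at rostral 1 wpi, -1.50), and dashed boxes mark further members called with all groups in 1 fit that has replicate number as a block.

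The 12S rRNA gene mt-rnr1 had the lowest estimate of the 14 in 7 of the 8 comparisons. In libraries 1 to 5 of uninjured rostral segments, mt-rnr1 was at 5069, 1918, 3334, 2672 and 2884 FPKM. At rostral 1 wpi it was at 1112, 458, 1424, 1577 and 1191 FPKM. All 5 values at 1 wpi lay below all 5 uninjured values, and the difference was -1.50 (SE 0.43, adjusted p = 0.0467). The call depended on most single libraries: leaving out each of the 10 in turn gave -1.67 to -1.20 with adjusted p of 0.0493 to 0.106, and it held only without uninjured library 2. Number 1 at rostral 1 wpi was the shallowest library of all (4359571 fragments), and without it the difference was -1.52 (adjusted p = 0.0833).

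At later weeks the rostral mt-rnr1 levels overlapped with the uninjured ones. They were 3531, 1571, 2640.2, 878 and 865 FPKM at 2 wpi, a difference of -0.90 (SE 0.44, adjusted p = 0.186). At 4 wpi they were 3076, 949, 1321, 2002 and 1427 FPKM, with -0.90 (SE 0.40, adjusted p = 0.221) before blocking. At 6 wpi they were 2278, 975, 2177, 1403 and 1404 FPKM, with -0.94 (SE 0.35, adjusted p = 0.169). Within number, the injured library was below the uninjured one for 5 of 5 numbers in each of the 4 rostral comparisons, which share the uninjured libraries. The mean same-number difference was -1.50 ± 0.61 (SD), -0.90 ± 0.71 (SD), -0.90 ± 0.35 (SD) and -0.94 ± 0.20 (SD) at 1, 2, 4 and 6 wpi.

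In caudal segments, uninjured libraries 1 to 5 had 4271, 1852, 1938, 1868 and 1154 FPKM of mt-rnr1, and the first stood well above the rest. At caudal 1 wpi the values were 2269, 689, 1029, 653 and 476 FPKM, a difference of -1.21 (SE 0.46, adjusted p = 0.102) that was called without library 1 at 1 wpi (-1.55, adjusted p = 0.0303). At caudal 2 wpi they were 1480.0, 688, 849, 929 and 578 FPKM, with -1.23 (SE 0.37, adjusted p = 0.0726), called without uninjured library 5 (-1.43, adjusted p = 0.0363). The groups overlapped in both comparisons, although each injured library was below the uninjured one of its number. At caudal 4 wpi the levels were 805, 1252, 225, 1308 and 928 FPKM, with -1.38 (SE 0.52, adjusted p = 0.248) and 5 of 5 numbers lower, and number 3 far below its counterpart. That library had the largest FPKM denominator of all libraries (4.06e+07, with 25999589 fragments) and the lowest mitochondrial share (9.25%). The part of the denominator in its mt-rnr1 level was not tested. At caudal 6 wpi libraries 1, 2, 3 and 5 had 1987, 1370.2, 1568 and 1246 FPKM, with -0.41 (SE 0.41, adjusted p = 0.795) and 3 of 4 numbers lower.

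**Figure D5:**
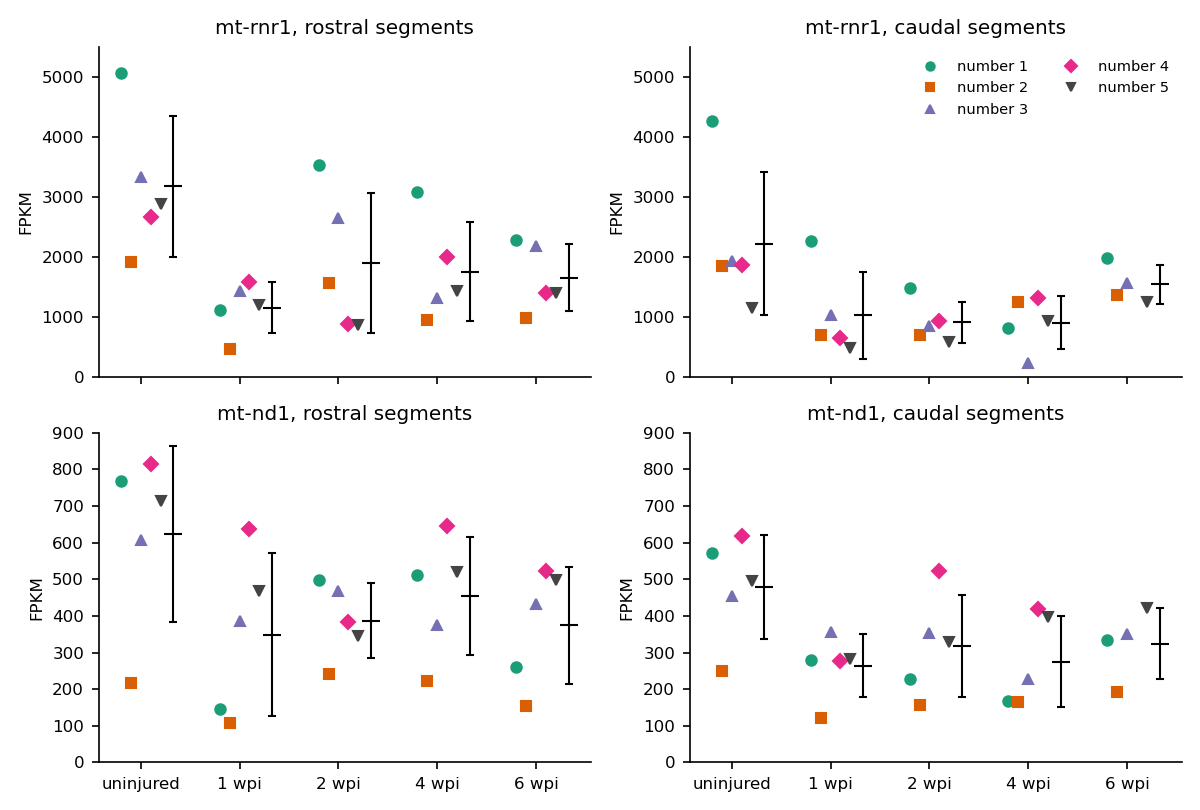
FPKM of mt-rnr1 (top) and mt-nd1 (bottom) in each library by group, rostral (left) and caudal (right), with symbols for the replicate number and the mean ± SD at the side. At rostral 1 wpi the mt-rnr1 values lie between 458 and 1577, all below the uninjured values of 1918 to 5069, while the mt-nd1 ranges overlap in all groups.

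The neighbouring complex I gene mt-nd1 had the lowest adjusted p among the protein genes (0.102 at caudal 1 wpi), and it was not called in the separate fits. In rostral segments mt-nd1 was at 769, 217, 608, 814 and 713 FPKM in uninjured libraries 1 to 5 and at 147, 109, 386, 638 and 467 FPKM at 1 wpi, a difference of -1.002 (SE 0.53, adjusted p = 0.279). It was at 497, 240.3, 467, 383 and 344 FPKM at 2 wpi (-0.60, adjusted p = 0.284), and without uninjured library 2 it was called lower there (-0.95, adjusted p = 0.0256). The lower libraries at 1 wpi were numbers 1 and 2, and the group ranges overlapped. At 4 wpi mt-nd1 was at 513, 223, 376, 646 and 519 FPKM (-0.41, adjusted p = 0.63) and at 6 wpi at 262, 153, 432, 524 and 499 FPKM (-0.74, adjusted p = 0.396). Within number, the injured library was lower for 5 of 5, 4 of 5, 4 of 5 and 5 of 5 numbers at 1, 2, 4 and 6 wpi.

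In caudal segments mt-nd1 was at 571, 250.5, 455, 619 and 495 FPKM in uninjured libraries and at 279, 122, 357, 278 and 282 FPKM at 1 wpi, a difference of -0.88 (SE 0.33, adjusted p = 0.102). Without uninjured library 2 it was called (-1.09, adjusted p = 0.0478). Only number 2 among the uninjured libraries fell inside the range of 1 wpi. The level was 229, 157, 352, 523 and 329 FPKM at 2 wpi (-0.64, adjusted p = 0.305), 168, 164, 229, 418 and 398 FPKM at 4 wpi (-0.85, adjusted p = 0.305) and, in libraries 1, 2, 3 and 5, 333, 191, 351 and 422 FPKM at 6 wpi (-0.55, adjusted p = 0.597). With all groups and the replicate block in 1 fit, which allows for the missing number 4, the estimate at 6 wpi was -0.41. Every injured caudal library was below the uninjured library of its number, in 5 of 5, 5 of 5, 5 of 5 and 4 of 4 numbers, comparisons that share their uninjured libraries.

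The 16S rRNA gene mt-rnr2, the most abundant member, varied widely between libraries, and no difference was called when each comparison was fitted on its own. In those fits the SE of mt-rnr2 is drawn toward the spread of genes of similar level. Its adjusted p values there therefore do not measure the spread of mt-rnr2 between libraries alone. With all groups and the replicate block in 1 fit, mt-rnr2 was called at rostral 1 wpi (-0.88, SE 0.33, adjusted p = 0.0448). In uninjured rostral libraries 1 to 5 mt-rnr2 was at 154120.0, 61896, 112206, 174341 and 169914 FPKM, and at 1 wpi at 36663, 37650.4, 76491, 134260.0 and 107385 FPKM. Numbers 4 and 5 were the highest at 1 wpi, and the groups overlapped (-0.88, SE 1.17, adjusted p = 0.708). At 2, 4 and 6 wpi the rostral values were 116678, 54754, 40152, 113956 and 108532, then 106412, 55371, 73235, 169993 and 126902, then 68438, 62906, 80523, 139873 and 119578 FPKM. In caudal segments mt-rnr2 was at 112846, 61448, 92247, 132935 and 113867 FPKM in uninjured libraries and at 46901, 34692, 64703, 74069 and 70814 FPKM at 1 wpi (-0.83, SE 0.70, adjusted p = 0.481). The later caudal values were 63246, 36985, 56495, 199174 and 69233 at 2 wpi, 54310.5, 46242, 23714, 129404 and 85865 at 4 wpi and, in libraries 1, 2, 3 and 5, 66409.5, 63475, 63154 and 91455 FPKM at 6 wpi. Library 4 at 2 wpi held the highest value of all 49. The mt-rnr2 estimates ran from -0.88 at rostral 1 wpi to -0.35 over the 8 comparisons, with adjusted p of 0.481 to 0.923. Within numbers, mt-rnr2 was below the uninjured library in 5 of 5, 5 of 5, 5 of 5 and 4 of 5 numbers at rostral 1, 2, 4 and 6 wpi, and in 5 of 5, 4 of 5, 5 of 5 and 3 of 4 at the caudal times, comparisons that share the uninjured libraries of a region.

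mt-nd6, the complex I subunit encoded on the minus strand, was at 576, 342, 435, 519 and 366 FPKM in uninjured rostral libraries and at 165, 209, 236, 543 and 399 FPKM at 1 wpi (-0.64, SE 0.34, adjusted p = 0.279). Number 1 went from the highest to the lowest of its group, and 3 of 5 numbers were lower. At rostral 2, 4 and 6 wpi mt-nd6 was at 595, 361, 292, 307 and 274, then 551, 286, 255, 537 and 345, then 375, 248, 358, 455 and 386 FPKM. In caudal segments it was at 460.4, 369, 355, 383 and 276 FPKM in uninjured libraries and 321, 274, 254, 219 and 243 FPKM at 1 wpi, lower for 5 of 5 numbers (-0.49, SE 0.21, adjusted p = 0.145). The caudal values at 2, 4 and 6 wpi were 339, 307, 268, 419.7 and 276, then 264, 282, 189, 333 and 291, then, without number 4, 365, 282, 305 and 338 FPKM. No mt-nd6 difference was called when each comparison was fitted on its own (adjusted p of 0.145 to 0.844). With all groups and the replicate block in 1 fit, mt-nd6 was called at rostral 1 wpi (-0.64, SE 0.21, adjusted p = 0.0202).

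In uninjured rostral libraries mt-co1, the catalytic subunit of complex IV, was at 12263, 4202, 9115, 18551 and 10505 FPKM, and at 1, 2, 4 and 6 wpi at 3498, 2398, 8825, 11692 and 11860.5, then 6718, 4395, 7797, 7537 and 7157, then 10407, 3034, 7166, 17973 and 14974, then 5032, 2915, 10625, 14472 and 16511 FPKM. Number 2 was the lowest mt-co1 library in 10 of 10 groups. In uninjured caudal libraries mt-co1 was at 8528, 4143, 6723, 13697 and 8838 FPKM, and at 1 wpi at 3962, 2756, 4658, 4458 and 7715 FPKM, lower for 5 of 5 numbers (-0.81, SE 0.44, adjusted p = 0.251). At caudal 2, 4 and 6 wpi the values were 3853, 2703, 8227, 10602 and 8590.2, then 3899, 3373, 4368, 11964 and 14134, then, without number 4, 5956, 4882, 7339 and 12096 FPKM. At 6 wpi mt-co1 was lower for only 1 of 4 numbers (-0.13, adjusted p = 0.967).

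The complex I subunit gene mt-nd3 was at 255, 147, 304, 426 and 423 FPKM in uninjured rostral libraries and at 127, 97.7, 144, 419 and 269 FPKM at 1 wpi, lower for 5 of 5 numbers (-0.67, SE 0.43, adjusted p = 0.371). At rostral 2, 4 and 6 wpi mt-nd3 was at 416, 172, 170.0, 268 and 239.5, then 345, 176, 131, 518 and 328, then 179.9, 167, 237, 353 and 303 FPKM. These ranges overlapped that of uninjured fish. In caudal segments it was at 188, 135, 221, 301 and 180.1 FPKM in uninjured libraries and at 168, 104, 139, 178 and 161, then 223, 159, 118, 319 and 177, then 170.0, 161, 62.5, 335 and 249 FPKM at 1, 2 and 4 wpi. At caudal 6 wpi libraries 1, 2, 3 and 5 had 233, 166, 206 and 266 FPKM of mt-nd3, the only positive estimate among the 14 longer members in that comparison (0.12, SE 0.26, adjusted p = 0.922). Number 3 was the lowest mt-nd3 library at caudal 4 wpi, as it was for mt-rnr1.

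In uninjured rostral libraries mt-nd5, a proton-pumping subunit of complex I, was at 834, 357, 678, 795 and 456 FPKM, and at 1 and 2 wpi at 265, 268, 518, 666 and 604, then 626, 374, 556, 406 and 415 FPKM. At rostral 4 and 6 wpi it was at 614, 283, 490.2, 703 and 524, then 375, 292, 568, 566 and 602 FPKM. These groups overlapped. In caudal segments mt-nd5 was at 641, 371, 526, 607 and 352 FPKM in uninjured libraries and at 409, 286, 483, 322 and 346, then 364, 307, 518, 599.9 and 433, then 276, 317, 363, 480.3 and 445 FPKM at 1, 2 and 4 wpi. At 6 wpi libraries 1, 2, 3 and 5 had 417, 374, 476 and 431 FPKM. The mt-nd5 estimates ran from -0.46 at rostral 1 wpi to -0.16 at caudal 2 wpi, with adjusted p of 0.305 to 0.861.

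None of the other 7 longer members was called in a comparison with uninjured fish by the separate fits. The lowest estimate was that of mt-atp6 at caudal 4 wpi (-0.97, SE 0.58, adjusted p = 0.508), and mt-atp6 estimates were below 0 in all 8. The complex IV genes mt-co2 and mt-co3 had their lowest estimates at rostral 1 wpi (-0.61 and -0.64) and were near 0 at rostral 4 wpi (0.01 for mt-co3). mt-cyb ranged from -0.50 at caudal 4 wpi to -0.08 at rostral 4 wpi. Of the complex I genes, mt-nd2 ranged from -0.73 to -0.34, mt-nd4 from -0.45 to -0.14 and mt-nd4l from -0.38 to 0.02. Adjusted p values of these 7 members were 0.423 or more.

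Of the 22 short members tested, 0 were called in any of the 8 comparisons by limma or by voom on recovered fragments. At an unadjusted p under 0.05, limma had 3 lower at caudal 1 wpi, 1 lower at caudal 4 wpi, 1 higher and 1 lower at rostral 6 wpi, and 1 higher at caudal 6 wpi. The smallest adjusted p values were for trnW at caudal 1 wpi (-2.31, adjusted p = 0.103), trnA at caudal 1 wpi (-1.97, adjusted p = 0.126) and trnG at caudal 1 wpi (-1.01, adjusted p = 0.148). trnW had at most 3 fragments in a library and trnA at most 6. trnN was above its uninjured level at caudal 6 wpi for 4 of 4 numbers (0.78, adjusted p = 0.262) and at rostral 6 wpi (0.71, adjusted p = 0.174), without passing the test, and it passed at both when values were scaled by the sum of all fragments (1.12 and 1.05, adjusted p = 0.0397 and 0.00911). That scaling also moved the median of all genes to between 0.19 and 0.31 over the 8 comparisons. mt-atp8 ranged from -0.63 at caudal 4 wpi to -0.18 at caudal 2 wpi.

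The late and early stages were compared within regions, and 0 of the 14 longer members were called between 6 wpi and 1 wpi in rostral segments (1.61% of all genes called) or in caudal segments (4.35%) by limma, with 0 and 1 higher at an unadjusted p under 0.05 and 0 by voom. The medians of the 14 were 0.30 and 0.23. Blocked on the number, which paired libraries here, mt-nd3 was higher at caudal 6 wpi (0.61, SE 0.12, adjusted p = 0.0392), where 2.2% of all genes were higher. Its values were higher at 6 wpi for 4 of 4 numbers. For mt-rnr1 the caudal difference was 0.80 (SE 0.44, adjusted p = 0.334) and the rostral 0.56 (SE 0.41, adjusted p = 0.587).

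Between caudal and rostral segments of uninjured fish, limma and voom called 0 of the 14 (0 at an unadjusted p under 0.05, and 0.0213% of all genes called), although all 14 estimates were below 0, from -0.58 for mt-rnr1 to -0.27 for mt-nd6. Here the numbers paired the libraries most closely, and mt-rnr1 was lower in caudal segments for 5 of 5 numbers, but it did not pass with the block either (-0.58, SE 0.20, adjusted p = 0.757). The change after injury was compared between regions by an interaction term, which called 0 of the 14 and 0% of all genes at 1, 2, 4 and 6 wpi, with 0 of the 14 at an unadjusted p under 0.05. For mt-rnr1 this difference between changes was 0.29 (SE 0.63) at 1 wpi, -0.33 (SE 0.58) at 2 wpi, -0.48 (SE 0.66) at 4 wpi and 0.54 (SE 0.51) at 6 wpi. Rostral and caudal libraries of the same time and number deviated together in all 24 such pairs (correlation across genes 0.225 to 0.610, mean 0.455). With each pair as a block, 0 of the 14 were called again (limma, 1 at an unadjusted p under 0.05, mt-nd3 at 6 wpi), and the mt-rnr1 values were 0.29 (SE 0.45), -0.33 (SE 0.33), -0.48 (SE 0.48) and 0.50 (SE 0.29).

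Nuclear genes of the respiratory chain were tested in the same comparisons, where 9.82%, 15.1%, 6.42% and 4.26% of all genes were called at rostral 1, 2, 4 and 6 wpi and 13.2%, 6.36%, 1.38% and 0.461% at the caudal times. Of the 70 to 72 tested nuclear subunits of complexes I to V and cytochrome c, 2 were lower at rostral 1 wpi, 1 at rostral 6 wpi, 1 at caudal 1 wpi and 1 at caudal 2 wpi, and 0 were called otherwise. They were cox4i1l, a complex IV subunit gene (-1.35 at rostral 1 wpi, -1.48 at caudal 1 wpi and -1.68 at caudal 2 wpi, adjusted p = 0.0489, 0.00735 and 0.0333), and the complex I genes ndufa8 (-0.89 at rostral 1 wpi, adjusted p = 0.0449) and ndufab1b (-0.72 at rostral 6 wpi, adjusted p = 0.045). Their medians were -0.31, 0.02, -0.44 and -0.51 at rostral 1, 2, 4 and 6 wpi and 0.13, -0.20, -0.46 and -0.42 at caudal 1, 2, 4 and 6 wpi. Of the 18 tested transcription and replication genes, ppargc1a and ppargc1b were lower at rostral 2, caudal 1 and caudal 2 wpi (ppargc1a at -1.03, -1.08 and -0.95), esrra (-0.97) and nrf1 (-0.69) were lower at rostral 2 wpi, and the mitochondrial topoisomerase gene top1mt was higher at rostral 1 wpi (1.17, adjusted p = 0.037) and caudal 1 wpi (1.02, adjusted p = 0.0178). Of up to 71 mitochondrial ribosomal protein genes, 2 were higher at caudal 1 wpi (mrps11 at 0.75 and mrpl16 at 0.73) and 0 were called in the other 7. Of 16 RNA processing genes, 0 were called in the 8.

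Cell type markers moved in the same weeks. The myelin marker mpz was lower at rostral 1 wpi (-3.11) and caudal 1 wpi (-3.07), with 3 of 6 and 4 of 6 tested markers of myelinating glia lower, and the summed level of the list was 42238 to 150635 FPKM in uninjured rostral libraries and 16590.3 to 38832 FPKM at rostral 1 wpi. From the list for microglia and macrophages, 2 of 3 tested genes were higher at 1, 2 and 4 wpi in both regions, led by apoeb (3.94 at rostral and 4.48 at caudal 1 wpi), and the summed level was 375 to 2537 FPKM in uninjured rostral libraries and 5526 to 14846 FPKM at rostral 1 wpi. Of the 4 matched neuron genes, only the neurofilament gene nefla was called, lower in 6 of the 8 comparisons (-2.59 at caudal 1 wpi). The neuron genes elavl3, elavl4 and nefma were not called in any of them. Of the 4 tested muscle genes, 0 were called. The summed level of the 6 matched muscle genes was 14.8 to 126 FPKM in uninjured rostral and 3.53 to 293 FPKM in rostral 1 wpi libraries, and 9.52 to 724 FPKM in uninjured caudal and 13.3 to 79.4 FPKM in caudal 1 wpi libraries. The parvalbumin gene pvalb1 reached 648 FPKM in a library and the creatine kinase gene ckmb 61.8 FPKM, while tnnc2 and pvalb2 were at 0 in some libraries. The part of these changes in cell type markers in the mt-rnr1 difference was not tested.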

How the data were processed

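Spinal cord RNA was sequenced in 49 libraries of 10 groups, mapped to groups by the labels. The authors deposited FPKM per gene for each library. The submitters' processing notes name HISAT2 2.0.5, featureCounts 1.5.0-p3 and build danRer11, and no strand or poly(A) step is given in the sources used here. Every per-library column was used (0 were left out). The FPKM steps gave whole fragments for 100% of the values checked (within 0.01), at least 99.7% of values above 0 in each library, which gave the depths of 4359571 to 26940599 fragments. Precision is limited by these counts for the transfer RNA genes.

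Groups were compared with limma 3.58.1 (R 4.3.3) with a trend on log2(FPKM + 0.1), for genes averaging 0.1 FPKM or more over the fitted libraries, with Benjamini-Hochberg adjustment over all genes tested and a threshold of 0.05. Alternatives were a pseudocount of 1, no filter, other scalings, voom on recovered fragments, the replicate number as a block, subsets of numbers and leaving out libraries. Fits of all groups together and within regions for the numbers were chosen after seeing the data. Some of the fits were also run on simulated counts drawn independently for each library. Those counts held no shared deviation of same-numbered libraries, so they cannot show how the fits behave under it.

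Deviations from group means correlated between same-numbered libraries by 0.126 to 0.252 on average in comparisons over time and by 0.515 between uninjured regions, and every pair exceeded 0.1 at rostral 4 wpi, rostral 6 wpi, in both comparisons of 6 with 1 wpi and between uninjured regions. There the numbers were taken to pair the libraries.

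Values in every library are given for both rRNA genes, mt-nd6 and the 4 other longer members with the smallest adjusted p over the 8 comparisons with uninjured fish. Of the short ones, the 3 most abundant and the 3 with the smallest adjusted p are named. The members, the gene lists and the split of numbers 4 and 5 from 1 to 3 were chosen with earlier results of these data known, and are no independent support for them. From the nuclear lists, ndufa8, ppargc1a, esrra and nrf1 were named after their values were seen.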

Additional observations from a re-analysis of the deposited data

Results flagged for a closer look

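Of 110 combinations of measure and group tested for a library far from the rest of its group, 7 had one, and chance gives about 1 in 20. For mt-rnr1, caudal uninjured library 1 stood at 4271 FPKM, against 1154 to 1938 in the others. For mt-rnr2, caudal 2 wpi library 4 stood at 1.992e+05 FPKM (others 3.699e+04 to 6.923e+04), and caudal 6 wpi library 5 at 9.146e+04 FPKM (others 6.315e+04 to 6.641e+04). For mt-nd6, rostral 2 wpi library 1 stood at 594.7 FPKM, against 274.4 to 360.7. The mitochondrial share of fragments was 11.15% in caudal 1 wpi library 2, against 15.42% to 16.82%. The rRNA share of mitochondrial fragments was 79.88% in rostral 1 wpi library 2 (others 67.47% to 69.84%) and 53.72% in rostral 2 wpi library 3 (others 71.84% to 74.4%).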

How the results depend on the processing

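The number of the 14 longer members called changed as follows. Shares of all genes called stand above for the separate limma fits and for all groups with the block against uninjured fish. They also stand above for the block at rostral 4 and 6 wpi and at caudal 6 versus 1 wpi. For the other fits no share is given, so their counts are not set against one. At rostral 1 wpi, where mt-rnr1 was called, 0 were called with no filter, with scaling by nuclear fragments, in replicates 1 to 3 only and in replicates 4 and 5 only, and 5 with all groups and the replicate block in 1 fit. At rostral 2 wpi, 1 was called in replicates 4 and 5 only (mt-rnr1) and 1 with all groups and the block. The replicate block within a comparison called 1 at rostral 4 wpi, 1 at rostral 6 wpi, 2 at caudal 1 wpi (mt-rnr1 and mt-nd1), 1 at caudal 2 wpi (mt-rnr1) and 1 at caudal 6 versus 1 wpi. All groups with the block called 1 at rostral 6 wpi, 3 at caudal 1 wpi, 2 at caudal 2 wpi, 3 at caudal 4 wpi and 1 at caudal 6 versus 1 wpi (mt-co1). Quantile normalization called 1 at caudal 1 wpi (mt-nd1) and 1 at caudal 6 versus 1 wpi (mt-nd3), all groups without the block 1 at caudal 1 wpi, and voom 1 at caudal 2 wpi. Leaving out single libraries gave 0 to 1 at rostral 1 wpi, rostral 2 wpi, caudal 1 wpi and caudal 2 wpi. At rostral 1 and 2 and caudal 1, 2, 4 and 6 wpi not every same-numbered pair correlated above 0.1, so the block there rests on shared numbers only.

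Between numbers, mt-nd2 turned to -0.0085 scaled by all fragments and -0.21 by quantiles. By all fragments, nuclear fragments and quantiles, mt-nd5 turned to -0.32, -0.22 and -0.37, and mt-nd6 to -0.40, -0.31 and -0.39. Against uninjured fish, scaling by all fragments moved the median of all genes to between 0.19 and 0.31, and the median of the 14 minus it was -0.53 to -0.15, below 0 in 8 of 8 comparisons. By quantiles, the median of the 14 minus that of all genes was -0.40 to 0.09, below 0 in 7 of 8. The cause of these changes was not tested. Transfer RNA genes are limited by depth.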
